A study of Mus musculus with 4 samples.

Results

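Hox genes encode homeodomain transcription factors that record position along the body axis. The 39 mouse genes whose symbol reads Hox, a cluster letter from a to d and a number were taken from the 55471 genes counted in each library: 11 in the HoxA cluster, 10 in HoxB, 9 in HoxC and 9 in HoxD. Their transcripts were followed through single cells of the lung at E18.5, shortly before birth. Of 4 libraries, 2 (wild type replicates 1 and 2) have the genotype wild type. The other 2 (Dnmt1 CKO replicates 1 and 2) carry Dnmt1-D/D together with the transgenes Tbx4-rtTA and Tet-O-Cre. In this system a Tbx4-driven tetracycline activator turns on Cre, and Cre removes part of Dnmt1, the enzyme that copies DNA methylation onto new strands at replication. Tbx4 is active in lung mesenchyme, so the deletion is directed there and other cells of the mutant lung are expected to keep the gene. The labels give no inducer schedule, do not say whether the wild type embryos carried any of the transgenes, and name no embryo for a library. Every p-value therefore measures the spread between these 4 libraries, which may be technical.

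Within a cluster the genes lie in the order of their paralogue groups, numbered from 1 at the 3′ end to 13 at the 5′ end. Groups at the 3′ end are used in the head, neck and upper trunk, and groups at the 5′ end in the hind trunk, limbs and genitalia. Cells keep the combination of their axial level of origin, a Hox code, with Polycomb complexes holding the unused genes silent and Trithorax complexes keeping the used ones active. Hoxa5 is the member best known in the lung, where its loss disturbs airway branching and alveolar formation. On GRCm38 the HoxA cluster lies on the minus strand of chromosome 6. HoxB spans chr11:96194316-96368256 (174 kb), HoxC chr15:102921103-103036852 (116 kb) and HoxD chr2:74668310-74765142 (96.8 kb), these 3 on the plus strand.

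The methylation substrate of Dnmt1 is the cytosine of a CG dinucleotide, and many Hox start sites lie in CG-rich DNA. Promoters of 4 members that differ in their behaviour below are shown: Hoxa5, the most abundant Hox transcript of the wild type lung, and Hoxa7, Hoxb8 and Hoxc4, which were higher in the mutant mesenchyme. Each runs from 250 bases before to 50 bases after the start that RefSeq gives on GRCm38.p6, 5′ to 3′ on the gene's strand, with every CG in capitals (CG reads the same on both strands). They lie at chr6:52204538-52204837 (minus, Hoxa5), chr6:52218524-52218823 (minus, Hoxa7), chr11:96281655-96281954 (plus, Hoxb8) and chr15:103034145-103034444 (plus, Hoxc4). The starts of Hoxa7 and Hoxc4 differ from the outermost ones in GENCODE.
Hoxa5: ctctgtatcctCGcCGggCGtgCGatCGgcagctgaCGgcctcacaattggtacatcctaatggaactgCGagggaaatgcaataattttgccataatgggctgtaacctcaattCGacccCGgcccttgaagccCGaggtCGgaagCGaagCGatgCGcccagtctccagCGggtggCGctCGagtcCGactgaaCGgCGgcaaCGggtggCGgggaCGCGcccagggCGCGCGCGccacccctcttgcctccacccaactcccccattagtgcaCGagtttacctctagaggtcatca
Hoxa7: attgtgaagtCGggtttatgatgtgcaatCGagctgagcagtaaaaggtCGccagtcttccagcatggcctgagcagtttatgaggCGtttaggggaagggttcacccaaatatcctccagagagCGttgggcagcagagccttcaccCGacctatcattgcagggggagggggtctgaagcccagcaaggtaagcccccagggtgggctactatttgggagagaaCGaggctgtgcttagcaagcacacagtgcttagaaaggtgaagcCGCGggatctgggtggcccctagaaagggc
Hoxb8: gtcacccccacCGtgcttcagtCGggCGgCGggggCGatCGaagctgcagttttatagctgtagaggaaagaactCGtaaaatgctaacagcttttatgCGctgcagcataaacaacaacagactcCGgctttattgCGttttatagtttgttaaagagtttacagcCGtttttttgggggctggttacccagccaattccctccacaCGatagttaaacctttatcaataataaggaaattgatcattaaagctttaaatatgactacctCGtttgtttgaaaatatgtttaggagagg
Hoxc4: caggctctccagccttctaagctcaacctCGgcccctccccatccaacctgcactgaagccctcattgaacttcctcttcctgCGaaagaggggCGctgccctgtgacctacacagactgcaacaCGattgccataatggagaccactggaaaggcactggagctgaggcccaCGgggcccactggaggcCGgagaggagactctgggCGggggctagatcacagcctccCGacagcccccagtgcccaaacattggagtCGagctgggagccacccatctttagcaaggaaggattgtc
The Hoxa5 window held 29 CG, a count reached by 12.9% of the 32851 mouse promoters of this length. The Hoxb8 window held 13 (reached by 37.9%), and the Hoxa7 and Hoxc4 windows 9 each (reached by 45.8%). At least 1 CG stood in 94.6% of all promoters, with a median of 7. RefSeq windows were matched for 22 of the 39 members (24 windows), with 4 to 45 CG and a median of 14.5. Methylation itself was not measured in these libraries.

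The 4 libraries held 48213065 to 56760219 UMIs (molecules counted by their molecular identifier), and 4323 to 5675 cells passed the filters, with 5902 to 7685 UMIs in the median cell. From 4 to 10 cell barcodes were shared by any 2 libraries. Cells were grouped by clustering without the Hox genes and named from marker genes, hence "-like". Each class had at least 1 UMI of all its markers in all 4 libraries (10 of 10 for mesenchymal-like, 8 of 8 for mesothelial-like and endothelial-like, 12 of 12 for epithelial-like cells). Mesenchymal-like cells had UMIs of the 12 epithelial markers too, so this presence does not tell the classes apart. Mesenchymal-like cells numbered 2822, 2580, 2626 and 2820, in the order wild type 1 and 2, Dnmt1 CKO 1 and 2, which is kept for every set of 4 values below. Endothelial-like cells numbered 694, 808, 242 and 564, epithelial-like cells 933, 954, 518 and 1317, and mesothelial-like cells 35, 26, 39 and 63. Values are CPM, the UMIs of a gene scaled to the UMI total of the class in that library. A 3′ library counts 1 end per transcript, so CPM is not divided by gene length. Fewer cells of a type and less RNA per cell cannot be told apart where a class is itself a mixture.

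Dnmt1 was lower in the mesenchyme of the mutant libraries, and in endothelial-like cells its values in the 2 groups overlapped. In mesenchymal-like cells the 4 Dnmt1 values were 27.3, 25.3, 9.4 and 12.7 CPM, with a log2 change of -1.26 (SE 0.22, adjusted p = 0.00767, edgeR). In endothelial-like cells the 4 values were 72.4, 66.7, 68.6 and 63.2 CPM. Mesothelial-like cells held 27, 37, 8 and 21 Dnmt1 UMIs (log2 change -1.69 after scaling, adjusted p = 0.0929). Which exons the allele lacks is not in the labels, so a 3′ count does not separate intact from truncated transcripts. Wild type replicate 1 and Dnmt1 CKO replicate 2 held no Y-linked UMIs and the other 2 libraries did. Dnmt1 CKO replicate 1 held 38566 Xist UMIs beside 4279 Y-linked ones, while wild type replicate 1, without Y-linked UMIs, held 26574 Xist UMIs. Whether Dnmt1 CKO replicate 1 pools embryos of both sexes is not given in the sources used here.

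Wild type mesenchyme carried an A and B code that stopped at paralogue group 7 or 8. Of the 39 members, 24 had at least 1 UMI in wild type mesenchymal-like cells and 14 reached 1 CPM, 7 of HoxA and 7 of HoxB. The most 5′ members at that level were Hoxa7 and Hoxb8. No HoxC and no HoxD gene reached it. All Hox genes summed to 528 and 569 CPM, of which HoxA gave 294 and 302 CPM, HoxB 234 and 267 CPM, HoxC 0.461 and 0.294 CPM and HoxD 0.115 and 0.147 CPM. Paralogue groups 4 to 6 gave 363 and 373 CPM, groups 1 to 3 gave 139 and 165 CPM, groups 7 to 9 gave 25.6 and 31.2 CPM, and groups 10 to 13 a single UMI, of Hoxd13.

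Hoxa5 alone measured 224 and 215 CPM there (219 ± 6.4 CPM, SD, n = 2). Hoxb4 followed at 72.4 and 83.2 CPM and Hoxb2 at 64.1 and 71.5 CPM. Both are HoxB genes first used at hindbrain and neck levels, and in the wild type mesenchyme their ranges nearly met, the lower Hoxb4 value lying just above the higher Hoxb2 value. Hoxb5 measured 42.4 and 44.1 CPM, Hoxb3 36.8 and 46.3 CPM, and Hoxa3 27.8 and 35.3 CPM. Hoxb5 and Hoxb3, neighbours in this order, overlapped, and Hoxa3 lay below both. Hoxa7, at 16.4 and 21.1 CPM, and Hoxa4, at 11.2 and 12.1 CPM, completed the 8 highest. Hoxa5 is flanked by Hoxa4 and by Hoxa6 at 3.97 and 7.16 CPM, so the level along the cluster was not a smooth gradient but a peak at a single gene. The heat map of the wild type libraries shows this peak, and the sharp edge after group 8.

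**Figure D1:**
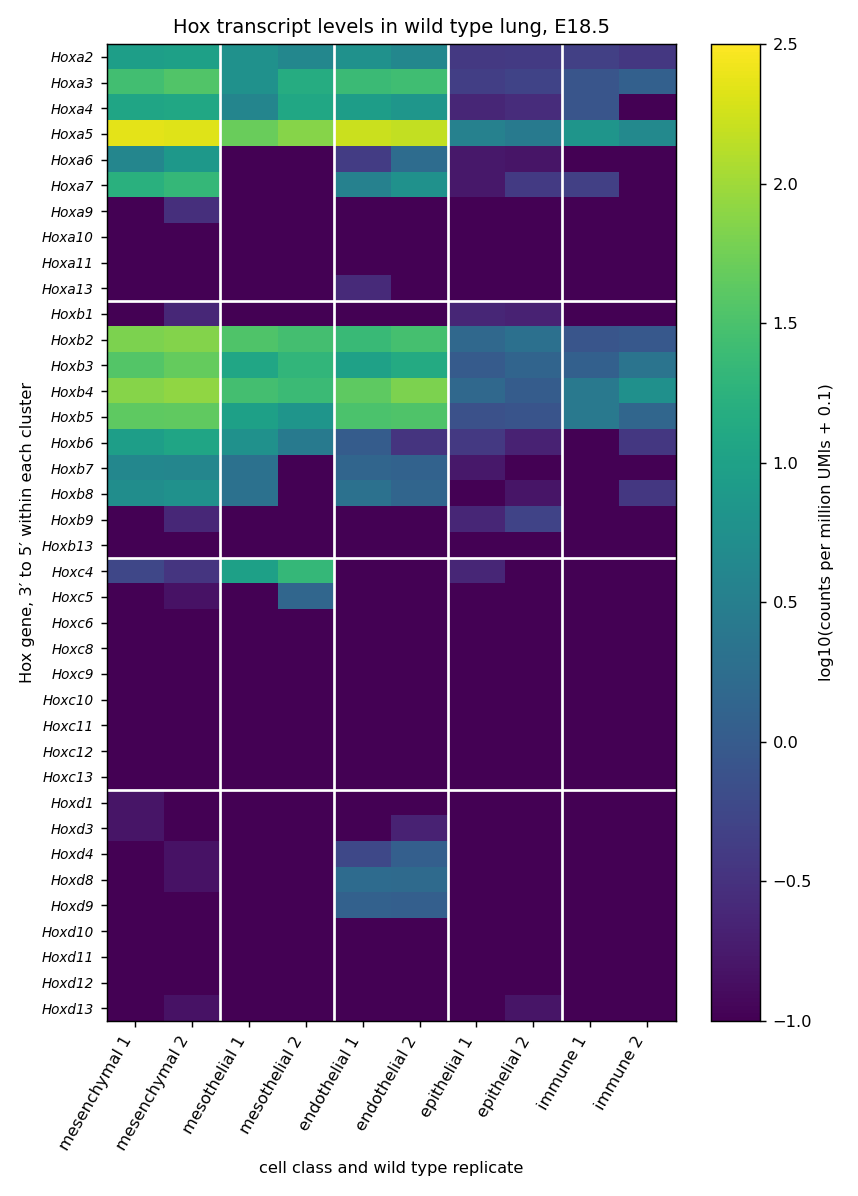
Hox transcript levels in the 2 wild type libraries, as log10(CPM + 0.1), with the genes shown from 3′ to 5′ within clusters A to D (rows) and 5 cell classes by replicate (columns). Hoxa5 is the brightest row in mesenchymal-like (224 and 215 CPM) and endothelial-like cells (165 and 153 CPM), Hoxc4 stands out in mesothelial-like cells (9.58 and 21.4 CPM), and HoxD signal appears in endothelial-like cells.

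The mesenchymal subclasses differed in the level of Hoxa5, Hoxb4 and Hoxb2. Hoxa5 was highest in matrix fibroblast-like cells (258 and 264 CPM in wild type) and lower in pericyte-like (179 and 137 CPM) and myofibroblast-like cells (99 and 90.7 CPM). Hoxb4 had the reverse order, with 149 and 146 CPM in myofibroblast-like cells, 105 and 122 CPM in pericyte-like cells and 55.1 and 69.6 CPM in matrix fibroblast-like cells. Hoxb2 was highest in pericyte-like cells, at 203 and 178 CPM, against 102 and 88.7 CPM in myofibroblast-like and 41.1 and 56.4 CPM in matrix fibroblast-like cells. Myofibroblasts are the contractile cells that shape the septa of the alveoli, pericytes wrap capillaries, and matrix fibroblasts make the interstitium. In all 3 genes the values of the 3 subclasses did not overlap between libraries. Hoxb8 was also uneven, at 16 and 15.5 CPM in myofibroblast-like and 3.58 and 4.54 CPM in matrix fibroblast-like cells. Because the subclasses are clusters of the same cells, these differences are described and not tested.

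In mesothelial-like cells, the lining of the lung surface, fewer Hox genes reached 1 CPM than in mesenchymal-like cells, and 1 was a HoxC gene. All Hox genes summed to 171 and 207 CPM in wild type, from 35 and 26 cells. Mesenchymal markers summed to 17061 and 17779 CPM in these cells and mesothelial markers to 9019 and 11669 CPM. The part of mesenchymal RNA in their Hox levels was not tested. Hoxa5 measured 49.8 and 72.1 CPM, Hoxb2 34.5 and 28 CPM and Hoxb4 28.7 and 24 CPM, the last 2 overlapping. Hoxc4, the most 3′ gene of its cluster, measured 9.58 and 21.4 CPM (5 and 16 UMIs), against 0.461 and 0.245 CPM in mesenchymal-like cells and 0 UMIs in endothelial-like cells. The most 5′ members at 1 CPM were Hoxa5 and Hoxb6, and 10 members reached it. A single UMI is 1.92 CPM in wild type replicate 1, and paralogue groups 7 and 8 each held 1 and 0 UMIs. A shorter code and low depth therefore cannot be told apart. No UMI of Hoxa6 or Hoxa7 was found in wild type mesothelial-like cells, whose depth is small.

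Endothelial-like cells had HoxA, HoxB and HoxD transcripts. Their Hox genes summed to 323 and 346 CPM in wild type, and 13 members reached 1 CPM: 5 of HoxA up to Hoxa7, 6 of HoxB up to Hoxb8 and 2 of HoxD up to Hoxd9. Hoxa5 measured 165 and 153 CPM, Hoxb4 42.7 and 65.2 CPM and Hoxb5 31.8 and 34.7 CPM. Hoxb2, at 23.2 and 29.1 CPM, was well below its mesenchymal level. Within the class, Hoxa5 was highest in arterial-like cells, at 266 and 216 CPM. No HoxC UMI was counted in any endothelial-like cell of the 4 libraries, which allows levels of up to 0.478, 0.346, 1.14 and 0.624 CPM by counting error.

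HoxD transcripts of the endothelium came mostly from lymphatic-like cells. Hoxd8 (10 and 13 UMIs), Hoxd9 (7 and 9) and Hoxd4 (3 and 9) were seen in wild type endothelial-like cells, while mesenchymal-like cells had 0 Hoxd9 UMIs. When all cells were clustered at a finer resolution (2.0), a cluster with lymphatic markers separated among the endothelial-like ones, with 9, 9, 13 and 13 cells. The endothelial-like class of that clustering held 566 cells of Dnmt1 CKO replicate 2, against 564 in the main one. Of the 36 endothelial-like cells of all libraries with a HoxD UMI, 34 fell in it, and 32 had a UMI of Prox1, the transcription factor that specifies lymphatic identity. Ccl21a, a chemokine of lymphatic vessels, was found in 34 of these cells. In lymphatic-like cells Hoxd8 measured 59.3, 68.9, 59.7 and 49.6 CPM and Hoxd9 51.9, 47.7, 89.6 and 66.1 CPM. Hoxa5 measured 14.8, 0, 17.1 and 11 CPM there, against 169, 156, 157 and 158 CPM in the other endothelial-like cells. The other endothelial-like cells held 0 Hoxd9 UMIs in each library and 3 Hoxd8 UMIs in all. These levels come from 44 cells, and no test was made between clusters of the same cells.

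**Figure D2:**
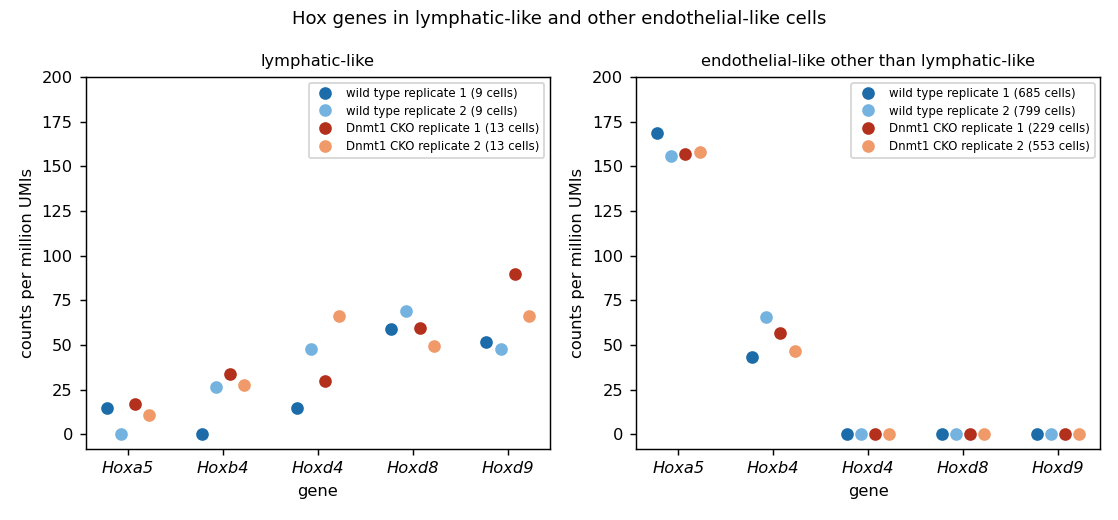
Levels (CPM) of Hoxa5, Hoxb4, Hoxd4, Hoxd8 and Hoxd9 in lymphatic-like cells (left) and in the remaining endothelial-like cells (right), 1 point per library. Hoxa5 is at 0 to 17.1 CPM on the left and 156 to 169 CPM on the right, and Hoxd9 is at 47.7 to 89.6 CPM on the left and at 0 on the right.

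Hox levels in epithelial-like cells were lower than in immune-like cells. Hox genes summed to 9.4 and 9.32 CPM in wild type epithelial-like cells and to 15.6 and 16.1 CPM in immune-like cells, a class taken for comparison. Free RNA was not measured. Hoxa5 measured 3.3 and 2.6 CPM in epithelial-like cells, Hoxb2 1.4 and 1.83 CPM and Hoxb4 1.4 and 0.944 CPM. After thinning each cell to 3000 UMIs, a Hoxa5 UMI was found in 1.37% and 0.39% of wild type epithelial-like cells, in 2.06% and 1.91% of immune-like cells and in 41.1% and 40.3% of mesenchymal-like cells (60.7% and 61.2% unthinned). The epithelial shares lay below those of immune-like cells and are not read as expression. Hoxb9 was an exception in its ratio to other members: it had 2 and 7 UMIs in wild type epithelial-like cells, all in alveolar type 1-like and type 2-like clusters, and 0 and 3 UMIs in wild type mesenchymal-like cells. All Hox UMIs of the wild type numbered 20769 in mesenchymal-like and 292 in epithelial-like cells.

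The mutant mesenchyme gained transcripts at the 5′ edge of the wild type code and at the 3′ end of HoxC. Of the 39 genes, 18 had enough UMIs to be tested in mesenchymal-like cells, 7 rose and 0 fell (edgeR quasi-likelihood test, adjusted p under 0.05 over 16200 genes). Over all genes tested in this class, 7.06% rose and 12.8% changed in either direction. The 7 were Hoxa7 (ENSMUSG00000038236.8), Hoxb7 (ENSMUSG00000038721.8), Hoxb8 (ENSMUSG00000056648.5), Hoxb9 (ENSMUSG00000020875.9), Hoxc4 (ENSMUSG00000075394.4), Hoxc5 (ENSMUSG00000022485.3) and Hoxc6 (ENSMUSG00000001661.5). Of these, Hoxb9 and the 3 HoxC genes had at most 8 UMIs in either wild type library and were tested because of their mutant counts, so the count of 7 is a description of where UMIs were gained. The median log2 change of the 18 tested members was 0.02, against 0.01 for all genes tested. DESeq2 called the same number, 7.

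In HoxB the fitted log2 change was larger with each step 5′ from Hoxb6 to Hoxb9. This order is one of ratios and not of levels. Hoxb9, nearly absent in wild type and tested because of its mutant UMIs, had the lowest mutant CPM of these genes. Hoxb6, the sixth gene, measured 9.15, 11.4, 15.2 and 10.8 CPM, and its groups overlapped. Hoxb7 (chr11:96286623-96290162) measured 4.09 and 3.97 CPM in the wild type libraries and 9.79 and 9.08 CPM in the mutant ones (log2 change 1.19, SE 0.246, adjusted p = 0.0152). Hoxb8 (chr11:96281905-96285315) measured 5.07 and 5.74 CPM and then 18.2 and 13.9 CPM (log2 change 1.54, SE 0.237, adjusted p = 0.00431). Both mutant libraries lay above both wild type libraries for each gene, a separation whose share over all genes was not counted. Hoxb9 (chr11:96271457-96276595) went from 0 and 3 UMIs to 57 and 37 UMIs, or 2.78 and 2.15 CPM (fitted log2 change 3.80, SE 0.565, adjusted p = 0.00356). The ratio of the group sums of Hoxb9 was 31.4, with a 95% counting interval of 10.4 to 155, which covers counting error only. Hoxb7 to Hoxb9 are the genes of the thoracic trunk, and Hoxb9 was the most 5′ HoxB gene at 1 CPM in the mutant, where Hoxb8 had been in wild type. Hoxb13, which lies far 5′ of the others, had 0 and 0 UMIs in wild type and 3 and 1 UMIs in Dnmt1 CKO.

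Of the tested HoxA genes, Hoxa7 rose. Hoxa7 (chr6:52214491-52221854) measured 16.4 and 21.1 CPM in the wild type libraries and 39.7 and 31 CPM in the mutant ones (log2 change 0.90, SE 0.202, adjusted p = 0.021). The Hoxa7 call depended on single libraries, with an adjusted p of 0.0772 or 0.0524 when wild type replicate 1 or 2 was left out and of 0.161 when Dnmt1 CKO replicate 1 was. Hoxb7 missed the threshold when wild type replicate 2 was left out (adjusted p = 0.0735). The members just outside the calls were 3 HoxA genes that read lower. Hoxa4 measured 11.2, 12.1, 7.84 and 6.34 CPM (log2 change -0.72, SE 0.231, adjusted p = 0.0765), and Hoxa5 224, 215, 168 and 171 CPM (log2 change -0.39, SE 0.178, adjusted p = 0.198). Hoxa3 measured 27.8, 35.3, 25.8 and 24.9 CPM (adjusted p = 0.288). The mutant values of each lay below both wild type values, and none passed the test. The share of all genes with such a separation was not counted, so the separation is not read as a result. Hoxa9 had 0, 4, 7 and 7 UMIs and was not tested.

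HoxC, nearly silent in wild type mesenchyme, gained its 3 most 3′ genes. Hoxc4 (chr15:103018934-103036852) went from 8 and 5 UMIs to 75 and 54 UMIs, or from 0.461 and 0.245 CPM to 3.65 and 3.14 CPM (log2 change 2.94, SE 0.414, adjusted p = 0.0028). Hoxc5 (chr15:102967443-103017429) had 0 and 1 UMIs in wild type and 23 and 19 UMIs in Dnmt1 CKO (fitted log2 change 3.20, SE 0.529, adjusted p = 0.00599). Its ratio of group sums was 42, with a counting interval of 7.14 to 1699. Hoxc6 (chr15:102998257-103011881) had no UMI in either wild type library and 46 and 39 UMIs, 2.24 and 2.27 CPM, in Dnmt1 CKO (adjusted p = 0.00127). Against a floor of 3 UMIs over the wild type group, Hoxc6 was at least 28.4-fold higher. Further 5′ the counts ended: Hoxc8 had 0, 0, 0 and 1 UMIs, Hoxc9 0, 0, 6 and 1, and Hoxc10 to Hoxc13 none. All HoxC genes summed to 7.3 and 6.63 CPM in the mutant, against 267 and 262 CPM for HoxB. Their UMIs were 1.38% and 1.29% of the Hox UMIs, from 0.0872% and 0.0517% in wild type. The annotated body of Hoxc5 spans Hoxc6 and the genes up to Hoxc10, and that of Hoxa3 spans Hoxa4 to Hoxa6. Both overlaps are between genes on the same strand. The strand used in counting is not given in the sources used here, and reads of antisense transcripts were not looked at separately.

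HoxD stayed near 0 in the mesenchyme. Hoxd8 had 0 and 1 UMIs in wild type and 12 and 5 UMIs in Dnmt1 CKO, too few to be tested (ratio of group sums 17, counting interval 2.67 to 711). Hoxd1, Hoxd3, Hoxd4 and Hoxd13 had 0 to 2 UMIs in each library. In all, 11 members with at least 1 UMI were not tested and 10 had no UMI in mesenchymal-like cells of any library: Hoxa11, Hoxa13, Hoxc10 to Hoxc13 and Hoxd9 to Hoxd12. The plot of the genes by position in its cluster shows where the mutant points leave the wild type ones.

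**Figure D3:**
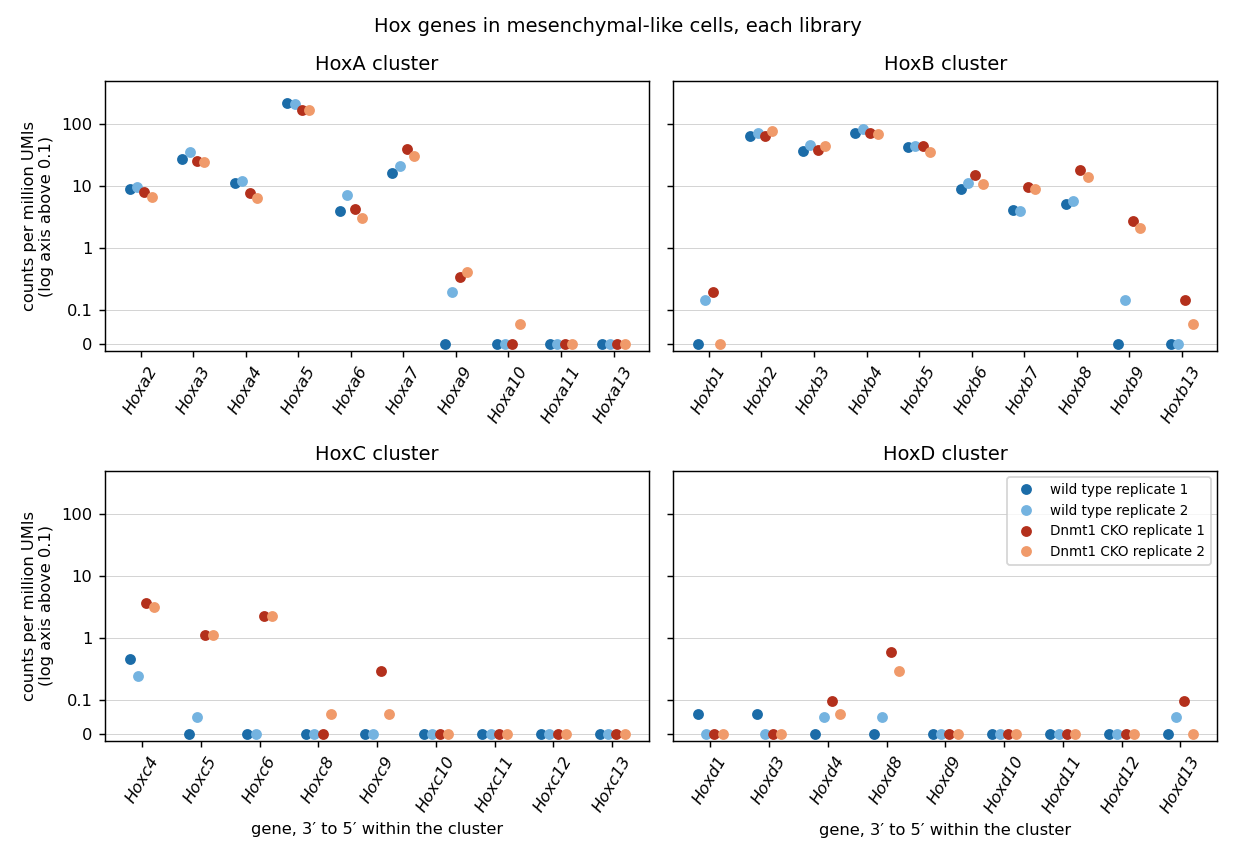
Level of the Hox genes shown (CPM, log axis above 0.1) in mesenchymal-like cells of the 4 libraries, ordered from 3′ to 5′ in each cluster. Wild type and Dnmt1 CKO points overlap or nearly so from Hoxb2 to Hoxb6 and part at Hoxb7, Hoxb8 and Hoxb9, at Hoxa7 and at Hoxc4 to Hoxc6.

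The sum of all Hox transcripts overlapped between the groups, at 528, 569, 531 and 513 CPM. Paralogue groups 7 to 9 took 4.84% and 5.48% of the wild type Hox UMIs and 13.5% and 11.1% of the mutant ones (25.6, 31.2, 71.7 and 56.9 CPM). Groups 4 to 6 measured 363, 373, 319 and 302 CPM, and groups 10 to 13 0, 0.0491, 0.243 and 0.116 CPM. In thinned cells, a Hoxc4, Hoxc5 or Hoxc6 UMI was found in 0.114%, 0.0412%, 2.26% and 1.87% of mesenchymal-like cells (0.213%, 0.233%, 5.18% and 3.55% unthinned). The same share was 0 in thinned endothelial-like and immune-like cells of every library, which allows shares of cells with a UMI of up to 0.43% to 1.56% and 0.547% to 0.82%. A Hoxb8 UMI was found in 1.56%, 1.44%, 5.36% and 4.34% of thinned mesenchymal-like cells, a Hoxa7 UMI in 4.18%, 5.97%, 10.2% and 8.21%, and any Hox UMI in 74.6%, 76.2%, 74.3% and 73.2%. The thinned mutant cells thus held Hox UMIs about as often as wild type ones.

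The make-up of the mesenchyme differed between the groups. In wild type 1875 and 1721 mesenchymal-like cells were matrix fibroblast-like, against 140 and 464 in Dnmt1 CKO. A cluster led by Saa3 and Dazl held 1281 and 1221 mutant cells and 23 and 20 wild type cells. Epithelial marker transcripts in mesenchymal-like cells summed to 485, 485, 435 and 1267 CPM and immune ones to 14.6, 15.3, 32.3 and 39.1 CPM. Epithelial-like cells held 0, 1, 4 and 4 Hoxb8 UMIs and 3 Hoxc4 UMIs in all. The part of these markers, and of the make-up, in the Hox gains was not tested. Values within subclasses that both groups hold are given next.

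Within myofibroblast-like cells, 405, 377, 356 and 362 in number, Hoxb8, Hoxb9 and Hoxc4 rose. Of 14 members tested, 3 rose and 0 fell, where 3.17% of all genes tested rose and 5.11% changed in either direction. Hoxb9 and Hoxc4, with at most 3 wild type UMIs in a library, were tested because of their mutant counts, so nothing is read from the count of 3 against that share. Hoxb8 measured 16 and 15.5 CPM in the wild type libraries and 48.3 and 31.4 CPM in the mutant ones (log2 change 1.36, SE 0.281, adjusted p = 0.0187). Hoxb9 had no UMI in wild type and 17 and 11 UMIs, 6.57 and 5.56 CPM, in Dnmt1 CKO (at least 9.12-fold higher against 3 UMIs over the group, adjusted p = 0.00771). Hoxc4 measured 1.5 and 0.407 CPM and then 6.95 and 6.07 CPM (log2 change 2.10, SE 0.494, adjusted p = 0.0352). The groups did not overlap for any of the 3, and the share of all genes without overlap was not counted. Hoxc5 went from no UMI to 7 and 5 UMIs, at least 3.91-fold higher, and was not tested. Hoxa7 measured 12.5, 14.2, 34 and 20.7 CPM and did not pass (adjusted p = 0.0747). Hoxb4, the most abundant member in these cells, measured 149, 146, 134 and 122 CPM. Dnmt1 fell there from 27 and 25.2 CPM to 3.09 and 6.07 CPM (log2 change -2.28, SE 0.351, adjusted p = 0.00364). No Hox gene was called when wild type replicate 2 or Dnmt1 CKO replicate 1 was left out, nor with a stricter cell filter, which left 55 and 124 mutant cells. DESeq2 called 1.

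In matrix fibroblast-like cells no Hox gene passed the test, and the Dnmt1 values of the 2 groups overlapped. Of 13 members tested, 0 changed (0 also at an unadjusted p under 0.05 with edgeR, and 0 by DESeq2 with 1 at an unadjusted p under 0.05), against 0.664% of all genes tested. Hoxb8 measured 3.58, 4.54, 9.17 and 4.77 CPM (adjusted p = 0.816), Hoxb9 had 0, 1, 0 and 1 UMIs and Hoxc4 1, 1, 1 and 2 UMIs. These UMIs come from far fewer mutant than wild type cells. All HoxC genes held 1, 1, 4 and 2 UMIs, or 0.0852, 0.0733, 4.08 and 0.734 CPM, which do not overlap but rest on few UMIs. Hoxa5 measured 258, 264, 198 and 211 CPM (adjusted p = 0.773). Dnmt1 measured 21.1, 21.2, 27.5 and 19.5 CPM in these cells. Pericyte-like cells, 226, 191, 102 and 137 in number, had 7 tested members, of which 0 changed (1 at an unadjusted p under 0.05 with edgeR, 0 called by DESeq2), against 2.19% of all genes. Hoxb2, their most abundant member, measured 203, 178, 134 and 181 CPM, and the untested Hoxb7 had 1, 3, 6 and 14 UMIs from fewer mutant cells. In pericyte-like cells 0 HoxC members reached 1 CPM in wild type and 3, up to Hoxc6, in Dnmt1 CKO. The most 5′ HoxB member at that level was Hoxb8 in wild type and Hoxb9 in Dnmt1 CKO. At this depth 1 CPM stands for very few UMIs. A test of the difference between these subclasses was not made.

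**Figure D4:**
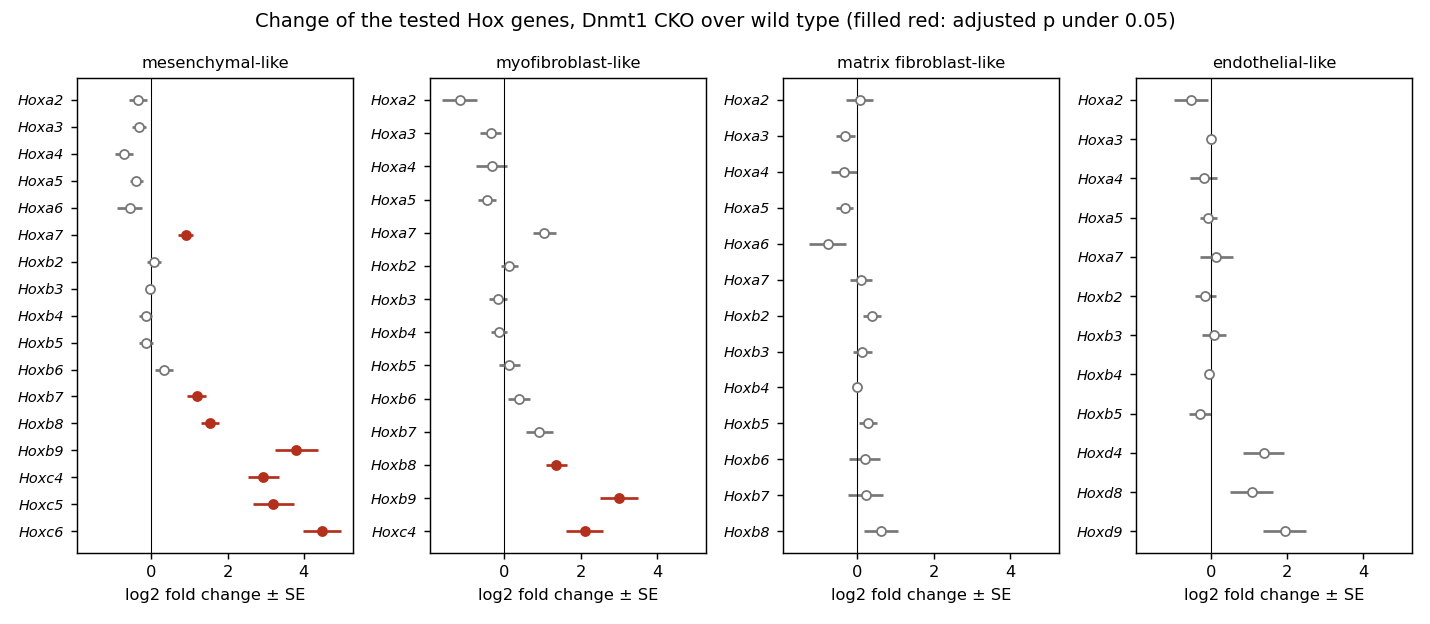
Log2 change, Dnmt1 CKO over wild type, of the tested Hox genes shown in 4 classes, with bars of 1 SE (left out where the change is under 0.05) and filled red points at an adjusted p under 0.05. The red points are 7 in mesenchymal-like cells, from Hoxa7 (0.90) to Hoxc6 (4.47), and 3 in myofibroblast-like cells, and there are none in matrix fibroblast-like or endothelial-like cells.

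Mutant cells were also split by a measure that uses no Hox gene, the UMIs of a list of 15 germline genes. DNA methylation keeps most of these silent in somatic cells. The list was chosen with earlier results of these data known, so its count of calls is not read as a result. Of the 15, 14 rose in mesenchymal-like cells (median log2 change 8.24), where 7.06% of all genes tested rose. The exception, Brdt, was present in wild type and measured 6.28, 9.03, 10.5 and 13.3 CPM (adjusted p = 0.146, edgeR), and its UMIs count in the split. Dazl, which binds RNA in germ cells, went from 0.0576 and 0.0981 CPM to 495 and 536 CPM. At least 2 germline UMIs were found in 2214 and 1740 mutant mesenchymal-like cells (84.3% and 61.7%), and none in 281 and 875. The cells with at least 2 held 92 of 94 Hoxb9 UMIs, 123 of 129 Hoxc4 UMIs, 39 of 42 Hoxc5 UMIs and 84 of 85 Hoxc6 UMIs, while they held 77.8% of all UMIs. The gained HoxC and Hoxb9 transcripts thus lay almost wholly in cells with germline transcripts. Of the Hoxb8 UMIs 90% lay in them, of the Hoxa7 UMIs 87.8%, of the Hoxb7 UMIs 85.7%, of the Hoxa5 UMIs 80% and of the Hoxb4 UMIs 77.4%.

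In mutant cells without a germline UMI Hoxb8 was near its wild type level, while Hoxa7 and Hoxb7 lay between wild type and the cells with at least 2 or overlapped wild type. Hoxb8 measured 4.87 and 6.9 CPM in cells with none and 19.7 and 17.4 CPM in cells with at least 2, against 5.07 and 5.74 CPM in wild type. Hoxa7 measured 26 and 16.7 CPM against 41.9 and 37.8 CPM, Hoxb7 6.49 and 5.64 CPM against 10.3 and 10.6 CPM, and Hoxc4 0 and 0.836 CPM against 4.19 and 4.19 CPM. Dnmt1 measured 40.6 and 29.3 CPM in cells with no germline UMI and 5.7 and 5.32 CPM in cells with at least 2. Hoxb4, in the middle of the wild type code, measured 81.7 and 70.7 CPM against 72.4 and 67.6 CPM. Hoxa5 measured 135 and 157 CPM in cells with none and 172 and 177 CPM in cells with at least 2, both below wild type. Cells with no germline UMI were somewhat shallower, with medians of 6837 and 5394 UMIs against 7434 and 6092 UMIs. Dnmt1 in the mutant also differed between subclasses, at 27.5 and 19.5 CPM in matrix fibroblast-like and 3.09 and 6.07 CPM in myofibroblast-like cells. Wild type Hoxb8 was lower in the former subclass than in the latter. The part of subclass make-up in the differences between the germline states was not tested. The split is by cells of the same 2 libraries, so it carries no test.

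**Figure D5:**
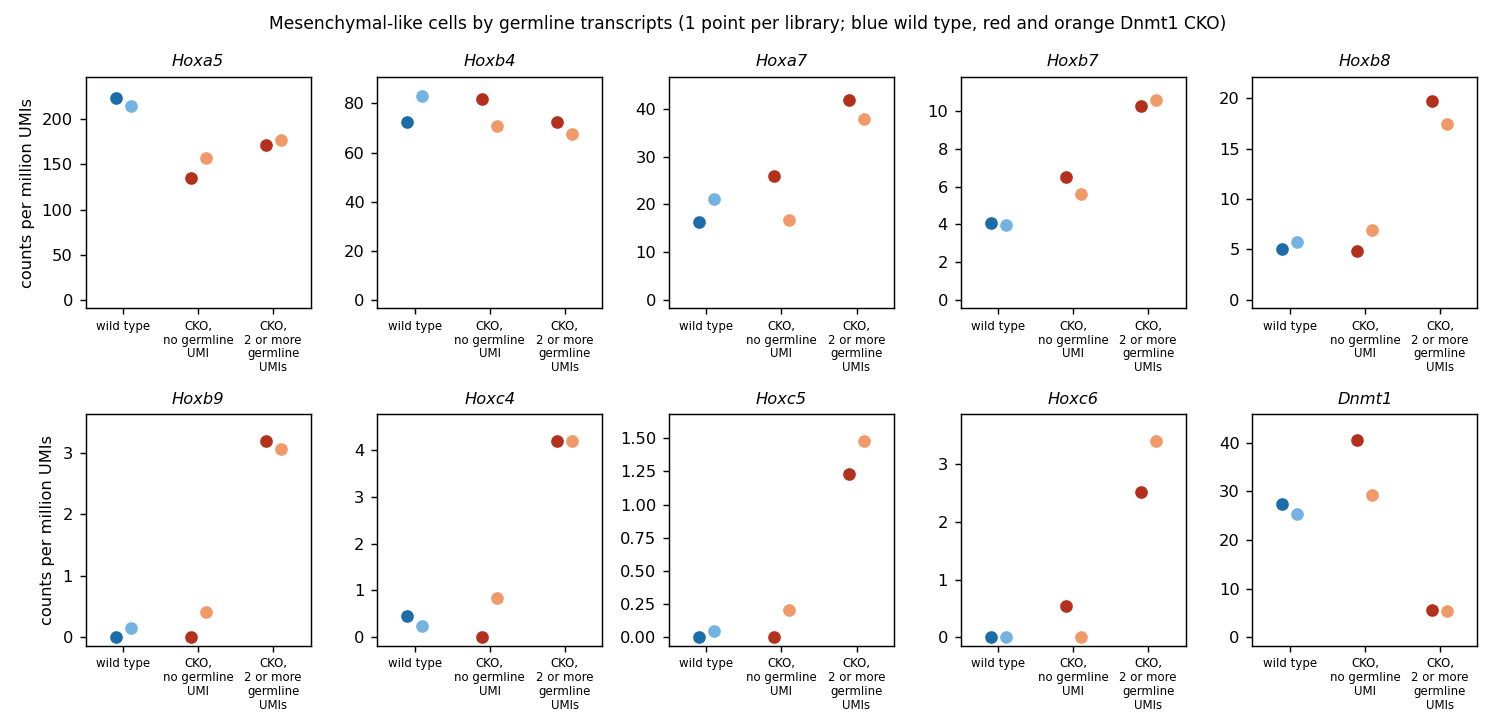
Levels (CPM) of 9 Hox genes and Dnmt1 in wild type mesenchymal-like cells and in Dnmt1 CKO mesenchymal-like cells with no germline UMI or with 2 or more, 1 point per library. Hoxb8 is at 4.87 and 6.9 CPM without and at 19.7 and 17.4 CPM with germline UMIs, Hoxb9 and Hoxc4 to Hoxc6 are near 0 except in the last state, Hoxb4 is level, and Dnmt1 falls to 5.7 and 5.32 CPM.

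The HoxC UMIs were uneven over the 8 mesenchymal clusters and sparse in each. In myofibroblast-like cells 7.3% and 4.97% of mutant cells had a Hoxc4, Hoxc5 or Hoxc6 UMI, in the Saa3 and Dazl cluster 5% and 3.52%, in a cluster led by Dcn, Ptn and Lum 5.5% and 4.27%, and in cycling-like cells, which are deeper, 8.6% and 13.2%. The share was 1.68% and 2.65% in a cluster led by Mfap5, Igfbp5 and Agtr2, where wild type had 0.602% and 1.5%. In pericyte-like cells it was 3.92% and 1.46%, against 0 and 0.524% in wild type. Of the 2 matrix fibroblast-like clusters, one led by Limch1, Fn1 and Macf1 had 1.65% and 0.27%, against 0.101% and 0.0876% in wild type. The other, led by Tcf21, Gpx3 and Hsd11b1, had 0 of 19 and 1 of 93 cells, against 0 and 0 in wild type. In the cluster led by Mfap5, Hoxb8 measured 5.25, 1.6, 2.06 and 1.42 CPM, with no excess in the mutant. The 180 and 132 mutant mesenchymal-like cells with a Hoxb9 or Hoxc4 to Hoxc6 UMI had Tbx5, a lung field factor, at 64 and 73.3 CPM, against 63.5 and 66.6 CPM in those without and 111 and 131 CPM in wild type. Foxf1, a factor of lung and gut mesenchyme, measured 87.4 and 87.2 CPM against 95.2 and 88 CPM. No UMI of Myod1, the skeletal muscle regulator, was found in either. Skeletal muscle markers as a list summed to 59.3 and 78.9 CPM in cells with these Hox UMIs, 48.4 and 53.1 CPM in those without and 17.8 and 16.4 CPM in wild type. Tnnt1, a troponin, gave 74 of 101 and 64 of 85 of these UMIs in cells with the Hox UMIs. Cardiomyocyte markers summed to 111 and 130 CPM in cells with these Hox UMIs, 64.3 and 67.1 CPM in those without and 113 and 52.8 CPM in wild type. The part of either list in the result was not tested.

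In endothelial-like cells 0 of 12 tested members changed (edgeR; 2 at an unadjusted p under 0.05; 0 by DESeq2), where 0.0554% of all genes tested did. Hoxa5 measured 165, 153, 145 and 155 CPM and Hoxa7 3.34, 5.77, 6.1 and 4.16 CPM. The largest difference was in Hoxd9, at 1.11, 1.04, 8 and 2.5 CPM (log2 change 1.94, SE 0.57, adjusted p = 0.768). Hoxd4 measured 0.478, 1.04, 2.67 and 2.5 CPM. The lymphatic-like share of endothelial-like cells was 1.3%, 1.11%, 5.37% and 2.3%, and within lymphatic-like cells the Hoxd8 values of the 2 groups overlapped at 59.3, 68.9, 59.7 and 49.6 CPM. The Hoxd9 values in these cells, 51.9, 47.7, 89.6 and 66.1 CPM, did not overlap, and the part of the lymphatic-like share in the Hoxd9 difference was not tested. Hoxd9 was called without Dnmt1 CKO replicate 2 (adjusted p = 0.0159) and without the low-count filter (adjusted p = 0.0234).

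In mesothelial-like cells, where Dnmt1 was lower without passing the test, 0 of 5 tested members changed (edgeR; 1 at an unadjusted p under 0.05; 0 by DESeq2), against 0.496% of all genes. Hoxa5 measured 49.8, 72.1, 81.6 and 65 CPM, and Hoxc4, already present in wild type, 9.58, 21.4, 9.6 and 8.79 CPM. Hoxa3 measured 5.75, 14.7, 19.2 and 31.6 CPM (log2 change 1.06, adjusted p = 0.446). With 26 to 63 cells per library, Hoxb9, Hoxc5 and Hoxc6 had too few UMIs to be tested. Members with at least 1 UMI numbered 14 in wild type and 25 in Dnmt1 CKO, but the mutant class had more cells and UMIs. Mesenchymal markers in the class summed to 17061, 17779, 11119 and 7808 CPM. Hoxb7 had 1, 0, 5 and 6 UMIs, and Hoxb9 and Hoxc6 had UMIs only in Dnmt1 CKO replicate 2 (3 and 2).

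In epithelial-like cells 0 of 5 and in immune-like cells 0 of 2 tested members changed (edgeR; 0 at an unadjusted p under 0.05 in both; 0 by DESeq2), and 0.00% of all genes tested were called in either class. Hoxa5 in epithelial-like cells measured 3.3, 2.6, 1.53 and 3.16 CPM. The difference of changes between classes was tested directly. Against epithelial-like cells, the mesenchymal change was larger for Hoxb9 by 4.10 on the log2 scale (adjusted p = 0.0425), 1 of 18 members tested, where 3.36% of all genes tested were called. Hoxb9 had 2, 7, 2 and 3 UMIs in epithelial-like cells, and the 2 groups overlapped there. The call was lost without either wild type library (adjusted p up to 0.245), and DESeq2 called 0. Against endothelial-like cells 0 of 21 members were called (edgeR; 3 at an unadjusted p under 0.05; 0 by DESeq2), where 5.77% of all genes tested were. Hoxb8 came nearest of the HoxB edge genes with a log2 difference of 1.73 (adjusted p = 0.0854, edgeR). The edgeR fit gave no usable p for Hoxc4, Hoxc5, Hoxc6 and Hoxd9 against endothelial-like cells and for Hoxc5 and Hoxc6 against epithelial-like cells. These members stand in the counts of 21 and 18 but carry no information on a difference.

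The regulators and partners of Hox genes were read from lists in mesenchymal-like cells, where 12.8% of all genes tested changed in either direction and 7.06% rose. Of 8 tested TALE cofactors, homeodomain proteins that bind DNA together with Hox proteins, Meis1 had the smallest adjusted p (0.0657, edgeR) and did not pass, at 102, 135, 74.3 and 81.2 CPM. The median log2 change of the 8 was -0.08, against 0.01 for all genes tested. Of 28 Polycomb genes 1 rose and 1 fell (median log2 change 0.09): Cbx8, a chromodomain subunit, from 8.92 and 9.32 CPM to 20.5 and 17.5 CPM, and Pcgf5, a RING-type subunit, from 8.58 and 15.9 CPM to 3.85 and 4.83 CPM. Of 14 Trithorax and H3K27 demethylase genes 1 fell (median log2 change -0.17): Chd7, a chromatin remodeller, from 27.3 and 29 CPM to 5.99 and 10.4 CPM (log2 change -1.79, adjusted p = 0.00356). Of 15 genes of retinoic acid signalling, which activates 3′ Hox genes in the embryo, 2 rose (median log2 change 0.03). They were Rdh10, which makes retinal from retinol, from 12.4 and 11.3 CPM to 28.6 and 30 CPM (log2 change 1.29, adjusted p = 0.00356), and Crabp2, which carries retinoic acid to its receptor (log2 change 2.77, adjusted p = 0.00767).

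Around the clusters, 1 of 5 tested non-coding RNAs fell and 0 rose (median log2 change -0.53), where 12.8% of all genes tested changed. Hoxb5os, transcribed opposite Hoxb5, measured 18.4, 18.6, 8.28 and 8.49 CPM (log2 change -1.14, adjusted p = 0.00816), while Hoxb5 measured 42.4, 44.1, 43.8 and 35.8 CPM. Of 15 tested genes next to the clusters (median log2 change -0.09) 1 fell, Calcoco1 beside HoxC (log2 change -0.90, adjusted p = 0.025), and 0 rose. No gene of the ParaHox list (Cdx1, Cdx2, Cdx4, Gsx1, Gsx2 and Pdx1) and neither Evx1 nor Evx2 had enough UMIs to be tested. Of 14 tested lung field factors 4 fell and 1 rose (median log2 change 0.01): Tbx4 (log2 change -1.14), Tbx5 (-0.90), Tcf21 (-1.39) and Tbx2 (-0.71) fell, and Gli3, a transcription factor of the hedgehog pathway, went from 20.2 and 22.4 CPM to 36.5 and 32 CPM (adjusted p = 0.0393). The mutant also carries the transgene Tbx4-rtTA, and its part in the Tbx4 change was not tested.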

How the data were processed

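Single cells of 4 lung libraries (2 wild type, 2 Dnmt1 CKO) were measured with droplet 3′ libraries, per the labels' protocols. The authors deposited raw UMI counts per gene and barcode, and the submitters' processing notes name Cell Ranger 3.1.0, bcl2fastq 2.20 and the build GRCm38.p6. The members and gene lists were chosen with earlier results of these data known. The single values of 1 member are not reported here.

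Barcodes with fewer than 500 genes or over 20% mitochondrial UMIs and Scrublet doublets (1.42% to 4.27%) were left out. Cells were scaled to 10000 UMIs and clustered in scanpy 1.11.5 (2000 variable genes without Hox genes, 30 components, 15 neighbours, Leiden resolution 1.0), and clusters were named from markers. Unnamed clusters held 3.6% to 7.49% of cells. UMIs were summed per class and library (20 cells or more), filtered with filterByExpr, TMM-scaled and tested with edgeR 4.0.16 (quasi-likelihood F-test, Benjamini-Hochberg over all genes tested, called under 0.05), 2 libraries against 2. The procedure was tested on simulated data. The prior count of log2 changes was 2, and their SE was the change divided by the root of F. An exact permutation test of 2 against 2 cannot go below 0.333 and was not used. Shares of cells were taken after thinning to 3000 UMIs. A floor is 3 UMIs over the group. Values are named for called members, the most abundant members of each class, those gained from 0 UMIs and the 3 nearest to a call. Gene positions come from GENCODE on GRCm38, and promoter sequences from RefSeq on GRCm38.p6.

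Alternatives were DESeq2 1.42.0, scaling by RLE or by library size, all genes without the low-count filter, presence of Y-linked UMIs as a sex covariate (which places Dnmt1 CKO replicate 1, with both Xist and Y-linked UMIs, with wild type replicate 2), a replicate block, each library left out, a stricter cell filter (10% mitochondrial, 1000 genes), Leiden at 0.5 or 2.0, doublets kept, and Hox genes kept among the variable genes.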

Additional observations from a re-analysis of the deposited data

Results flagged for a closer look

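Under the settings reported, Hoxb9 was the 1 member whose change differed between cell classes by a test of the difference itself. Its change in Dnmt1 CKO was larger in mesenchymal-like than in epithelial-like cells by 4.10 on the log2 scale (edgeR interaction, adjusted p = 0.0425). It rests on 0, 3, 57 and 37 UMIs in mesenchymal-like and 2, 7, 2 and 3 UMIs in epithelial-like cells, and Hoxb9 passed the count filter in mesenchymal-like cells because of its mutant UMIs. The call was lost with DESeq2 and without either wild type library (adjusted p up to 0.245). Against endothelial-like cells 0 members were called as reported and 1 in 6 of 13 alternatives. With 2 libraries per group, single libraries that stand apart within a group could not be looked for.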

How the results depend on the processing

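Of 389 recomputed values, 216 were tests of single members. Of these, 197 stayed on their side of the threshold, 16 lost a call and 3 gained one, and no called member changed sign. Of 145 counts of members called, 126 stayed within 1.5 times and 19 moved by more, or to or from 0. The other 28 were counts of members at 1 CPM in wild type, and all stayed within 1.5 times. The number of Hox genes called in mesenchymal-like cells was 5 to 8 over 15 alternatives (7 as reported; 5 to 7 with 1 library left out), and 14 members reached 1 CPM in wild type mesenchymal-like cells under each alternative clustering or cell filter run. In myofibroblast-like cells the count was 5 without a low-count filter, 1 with DESeq2, 0 with the stricter cell filter and 0 to 3 with 1 library left out. In endothelial-like cells it was 1 without a low-count filter and 0 to 1 with 1 library left out. In pericyte-like cells it was 2 without a low-count filter, 1 at Leiden resolution 0.5 and 1 with Hox genes kept among the variable genes. For the difference in change against endothelial-like cells it was 1 without a low-count filter, with the stricter cell filter, with doublets kept, at either other Leiden resolution and with Hox genes kept among the variable genes. Against epithelial-like cells it was 0 with DESeq2 and 0 to 1 with 1 library left out. The cause of these moves was not tested.

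The labels do not say whether a replicate number marks a shared litter or batch. The correlation of deviations between wild type 1 and Dnmt1 CKO 1 was 0.109. With 2 libraries per group, the other pairing mirrors it at -0.109, so this value cannot settle the question. With the replicate block the mesenchymal-like count was 8 (7 higher, 1 lower, Hoxa4 at an adjusted p of 0.0247), and 4 in myofibroblast-like cells. Adventitial fibroblast-like and smooth muscle-like cells formed no class and were not compared, and no myofibroblast-like class formed with Hox genes kept among the variable genes. Depth limits the members with under 10 UMIs per library and all of the mesothelial-like class.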
